A study of Mus musculus with 6 samples.

Results

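Adventitial fibroblast markers are described here through 10 gene symbols, Pi16, Dpp4, Clec3b, Ly6a, Serpinf1, Gsn, Dpt, Scara5, Mgp and Entpd2, out of 48397 symbols counted in each library. All 10 are named by a marker list and not by a filter on their counts. The list was, however, chosen with earlier results of these data known. The data are bulk RNA sequencing of cells sorted from mouse lungs at postnatal day 8 for the green fluorescence of a Pdgfra reporter allele. In 3 libraries the pups' dams had received 5E1, an antibody that binds hedgehog ligands, and in 3 they had received control IgG, in each case by intraperitoneal injection at E18.5, late in gestation. Pups of both groups carried the PdgfraEGFP/+ genotype, so the libraries hold no cells from mice without the reporter. The genotype does not show that every sorted cell expressed it. Transcripts of other cell types were counted as well, as given below. Nothing in the labels ties a library to its own pup, pool or litter, so a p-value here covers the spread between these samples only. The IgG libraries also carry the lower sample numbers in the titles, and any effect of handling order, if the numbers give one, cannot be told apart from the antibody.

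Adventitial fibroblasts lie in the loose connective tissue cuffs around larger airways and vessels, away from the alveolar septa. They are known for secreting matrix and matrix-binding proteins, for signals that support immune and progenitor cells, and, in several mouse organs, for a Pi16-positive state shared between tissues. Hedgehog ligands of the lung are made by epithelium and act on mesenchyme, where pathway activity induces Ptch1, Gli1 and Hhip. None of the markers is exclusive to adventitial cells. Mgp and Gsn are also made by smooth muscle and mesothelial cells, Ly6a by endothelium, and Dpp4 by epithelium and lymphocytes. In bulk RNA, fewer cells of a type and less RNA per cell cannot be told apart.

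Gene counts summed to 18857199 to 34318583 in the 5E1 libraries and to 16958433 to 28405457 in the IgG libraries. The hedgehog targets Ptch1, Hhip and Gli1 were lower in every 5E1 library than in every IgG library, and their summed level was 211 to 291 CPM (normalised read counts scaled to library size) in 5E1 and 981 to 1109 CPM in IgG. Of 16198 genes tested with the quasi-likelihood test of edgeR, 1966 were higher and 1791 lower in 5E1 at an adjusted p under 0.05. Of these calls 52.3% were higher, but only 28.6% under scaling by library size alone, which shifts the median gene to a log2 fold change of -0.14. Y-linked reads were at 195 to 206 CPM in 2 of the 5E1 libraries and 201 to 209 CPM in 2 of the IgG libraries, and at 0.109 CPM in 5E1 replicate 1 and 0.0726 CPM in IgG replicate 3. The 3 libraries of a group therefore did not all come from the same animals, and whether the 2 with Y-linked reads did is not given.

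The promoters of the markers are shown because many of these genes moved in the same direction. RefSeq promoters on GRCm38.p6 (250 bases before to 50 bases after a transcript start) matched 6 of the 10 symbols, namely Pi16, Dpp4, Serpinf1, Gsn, Dpt and Entpd2, with 8 promoters in all. Pi16 and Gsn are printed as genes that rose, and Dpt as one that was not called. Capitals mark matches, on either strand, to the CCAAT box (CCAAT), the GC box (GGGCGG), the TATA box (TATAAA), the AP-1 site (TGANTCA) and the GLI consensus (GACCACCCA).
Pi16 promoter, chr17:29318632-29318931, plus strand: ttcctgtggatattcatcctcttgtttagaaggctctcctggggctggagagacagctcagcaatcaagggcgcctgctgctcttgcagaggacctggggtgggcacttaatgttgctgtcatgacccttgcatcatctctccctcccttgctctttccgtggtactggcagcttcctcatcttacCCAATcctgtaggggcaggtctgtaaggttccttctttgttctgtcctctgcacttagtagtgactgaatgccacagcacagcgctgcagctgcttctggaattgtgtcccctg
Gsn promoter 1, chr2:35256109-35256408, plus strand: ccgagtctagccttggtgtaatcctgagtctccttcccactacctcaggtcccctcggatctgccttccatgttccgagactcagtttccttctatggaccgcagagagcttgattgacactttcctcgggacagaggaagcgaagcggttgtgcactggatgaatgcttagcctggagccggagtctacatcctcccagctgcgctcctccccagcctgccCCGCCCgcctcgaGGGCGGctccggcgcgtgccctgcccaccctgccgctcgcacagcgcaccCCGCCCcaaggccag
Gsn promoter 2, chr2:35266494-35266793, plus strand: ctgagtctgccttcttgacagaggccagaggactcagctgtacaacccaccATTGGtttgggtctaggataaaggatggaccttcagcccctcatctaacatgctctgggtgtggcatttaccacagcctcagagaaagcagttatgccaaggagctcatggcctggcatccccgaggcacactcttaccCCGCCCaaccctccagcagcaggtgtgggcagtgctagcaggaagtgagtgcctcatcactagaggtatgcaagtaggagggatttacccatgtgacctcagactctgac
Gsn promoter 3, chr2:35282130-35282429, plus strand: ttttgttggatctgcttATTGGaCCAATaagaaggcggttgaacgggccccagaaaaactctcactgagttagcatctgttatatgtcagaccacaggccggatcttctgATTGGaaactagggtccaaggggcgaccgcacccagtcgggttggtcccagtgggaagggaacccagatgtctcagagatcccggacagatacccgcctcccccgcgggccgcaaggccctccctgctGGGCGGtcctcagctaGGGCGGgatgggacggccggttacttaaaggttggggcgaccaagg
Dpt promoter, chr1:164796413-164796712, plus strand: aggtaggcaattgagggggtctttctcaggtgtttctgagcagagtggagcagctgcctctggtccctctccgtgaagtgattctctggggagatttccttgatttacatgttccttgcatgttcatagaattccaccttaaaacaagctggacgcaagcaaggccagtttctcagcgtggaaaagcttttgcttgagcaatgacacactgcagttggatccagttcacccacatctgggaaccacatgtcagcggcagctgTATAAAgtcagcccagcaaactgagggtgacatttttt
The 3 starts of Gsn matter for reading its counts, since secreted and cytoplasmic gelsolin are made from different starts and a count per gene adds them up. The GLI consensus, the site bound by the hedgehog transcription factors, was found in 0 of the 8 promoters and in 0.253% of all 32851 promoters of this length. CCAAT was found in 4 of 8 (Pi16, Serpinf1 and 2 of Gsn), against 37.4% of all promoters, and GGGCGG in 4 of 8 (Gsn and Entpd2), against 35.7%. TATAAA was found in 2 of 8 (Dpp4 and Dpt) against 13.6%, and TGANTCA in 1 of 8 (Entpd2) against 7.81%. No 2 matches overlapped in these 8 promoters. A match is a description of the letters and not a site shown to be bound, and no match says only that these letters are not in this window.

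Of the 10 markers, 7 rose in 5E1 (Scara5, Gsn, Mgp, Pi16, Clec3b, Ly6a and Entpd2) and 0 fell, where 12.1% of all tested genes rose and 11.1% fell (23.2% in either direction). Their median log2 fold change (5E1 over IgG) was 1.06, against 0.00087 over all genes tested. All 10 had at least 71 reads in every library and passed the low-count filter. In 6 of the 10 all 5E1 libraries lay above all IgG libraries, as did 20.8% of all genes tested. In 0 of the 10 all 5E1 libraries lay below all IgG libraries, against 21.4% of all genes. Serpinf1, Dpp4 and Dpt did not pass the test. The count that rose was 4 without 5E1 replicate 3 or without IgG replicate 3, 5 without 5E1 replicate 1, 5E1 replicate 2 or IgG replicate 2, and 8 without IgG replicate 1. Clec3b, Ly6a, Gsn and Mgp were called in each of these 6 fits.

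**Figure D1:**
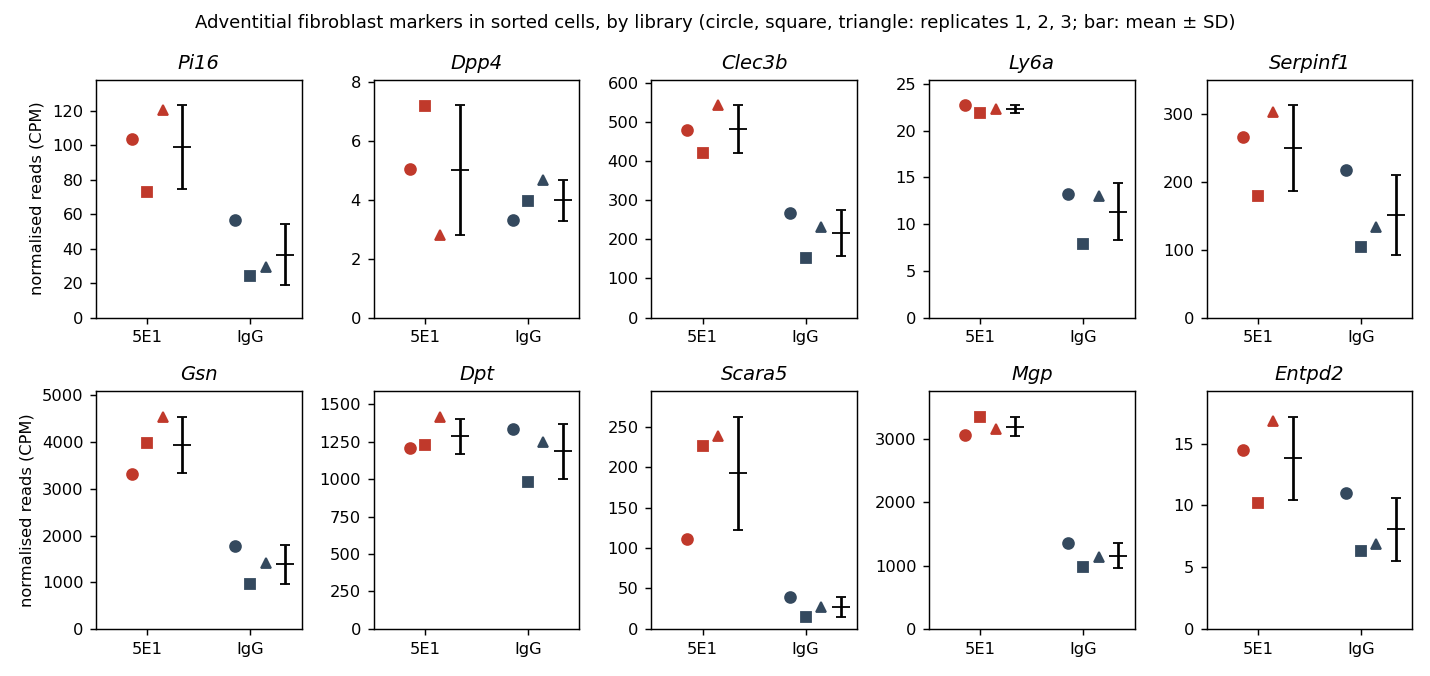
Normalised reads (CPM, linear axes from 0) of each of the 10 markers in 3 5E1 libraries (red) and 3 IgG libraries (dark), with the mean ± SD beside each group. Scara5, Gsn, Mgp, Pi16, Clec3b and Ly6a show no overlap between the groups, while Dpt, Dpp4, Serpinf1 and Entpd2 overlap.

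Of the secreted and matrix proteins, Mgp, on chromosome 6 (136872435 to 136875823 in mm10), encodes matrix Gla protein, a vitamin K-dependent inhibitor of calcification that also binds bone morphogenetic proteins. It had 3057, 3353 and 3157 CPM in 5E1 libraries 1 to 3, against 1359, 978 and 1138 CPM in IgG libraries 1 to 3. The 5E1 libraries lay close together, with an SD of 4.72% of their mean, and stood clear of the IgG libraries. The level was 2.75-fold higher, a log2 fold change of 1.46 (SE 0.14, edgeR adjusted p 0.000117).

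Clec3b, on chromosome 9 (123150946 to 123157432), encodes tetranectin, a secreted lectin-like protein that binds plasminogen. It had 480, 420 and 543 CPM in the 5E1 libraries, against 268, 152 and 231 CPM in the IgG libraries. The lowest 5E1 library was above the highest IgG library, with a log2 fold change of 1.15 (SE 0.20, edgeR adjusted p 0.00466). Pi16, on chromosome 17 (29317680 to 29330593), encodes a membrane-anchored protein of the CRISP family and gives its name to the Pi16-positive fibroblast state. It had 104, 72.8 and 120 CPM in 5E1, against 56.5, 23.9 and 29.1 CPM in IgG. IgG replicate 1 was far above the other IgG libraries and close to 5E1 replicate 2. On the log2 scale the difference was 1.43 (SE 0.38), and the edgeR adjusted p, 0.0497, was just under the threshold. The call ended without 5E1 replicate 1 (adjusted p 0.110), 2 (0.0781) or 3 (0.126) or without IgG replicate 2 (0.105) or 3 (0.147), with library size alone (0.0611) and with no low-count filter (0.150), and the adjusted p ran from 0.00167 to 0.150 over 15 alternatives. Its exons share 222 bases with the antisense gene AC162182.1, for which no count was used here.

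Dpt, on chromosome 1 (164796644 to 164824266), encodes dermatopontin, an extracellular matrix protein that binds decorin and takes part in collagen fibril assembly. It had 1210, 1228 and 1418 CPM in 5E1, against 1332, 981 and 1249 CPM in IgG. The groups overlapped, and the log2 fold change of 0.11 (SE 0.13, edgeR adjusted p 0.584) had a 95% interval of -0.18 to 0.41. That interval lies below the intervals of Mgp (1.15 to 1.77), Gsn (1.03 to 1.99) and Scara5 (1.597 to 4.02). The sign of its change turned with library size alone (-0.033) and without IgG replicate 2 (-0.011). Serpinf1, on chromosome 11 (75409769 to 75422701), encodes pigment epithelium-derived factor, a secreted serpin without protease inhibition that restrains vessel growth. It had 266, 180 and 303 CPM in 5E1, against 218, 104 and 134 CPM in IgG. IgG replicate 1 exceeded 5E1 replicate 2, and on the log2 scale the difference was 0.72 (SE 0.32, 95% interval -0.07 to 1.51, edgeR adjusted p 0.170). It passed without IgG replicate 1 (1.07, adjusted p 0.0199).

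Gsn encodes gelsolin, which severs and caps actin filaments in the cell and, in its secreted form, binds actin in plasma. Gsn lies on chromosome 2 (35256380 to 35307892). It had 3323, 3971 and 4532 CPM in 5E1, against 1778, 959 and 1410 CPM in IgG. Every 5E1 library was above every IgG library by a wide margin. The level was 2.85-fold higher, 1.51 on the log2 scale (SE 0.22, edgeR adjusted p 0.00122).

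The remaining markers encode proteins of the cell surface. Scara5, on chromosome 14 (65666403 to 65764826), encodes a scavenger receptor that takes up ferritin. It had 112, 227 and 239 CPM in 5E1, against 39.2, 15.3 and 27.3 CPM in IgG. 5E1 replicate 1 lay apart from the other 5E1 libraries yet well above the IgG libraries. Its log2 fold change of 2.81 (SE 0.47, edgeR adjusted p 0.0143) was the largest of the 10, a 7.003-fold higher level. The call ended without 5E1 replicate 2 (adjusted p 0.0611) or 3 (0.0527) or IgG replicate 3 (0.0624), with log2 fold changes of 2.67, 2.62 and 2.80.

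Ly6a, on chromosome 15 (74994877 to 74998031), encodes stem cell antigen-1, a lipid-anchored surface protein used to isolate mesenchymal progenitors in mice. It had 22.7, 21.9 and 22.3 CPM in 5E1, against 13.2, 7.84 and 13.0 CPM in IgG. The 5E1 libraries were almost level with each other (SD 1.87% of their mean) and all above IgG. On the log2 scale 5E1 exceeded IgG by 0.97 (SE 0.18, edgeR adjusted p 0.00373). Ly6a has close relatives in the same gene family, so reads that fit several of them may be missing from its count. Endothelial cells also make Ly6a, and the summed level of 12 endothelial markers, Tek, Cdh5 and Vwf among them, was 169 to 397 CPM in 5E1 and 148 to 181 CPM in IgG. Their part in the change of Ly6a was not tested.

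Entpd2, on chromosome 2 (25395874 to 25401321), encodes an ectonucleotidase that breaks extracellular ATP down to ADP. It had 14.5, 10.2 and 16.8 CPM in 5E1, against 11, 6.33 and 6.86 CPM in IgG. 5E1 replicate 2 lay below IgG replicate 1, and on the log2 scale the difference was 0.76 (SE 0.25, edgeR adjusted p 0.0491). The call ended without 5E1 replicate 1 (0.103) or 3 (0.170) or IgG replicate 2 (0.156) or 3 (0.163), with library size alone (0.0606), with limma-voom (0.0666) and with a term for Y-linked reads (0.0787). Of its 2128 exon bases, 612 overlap Npdc1 on the same strand, and reads there may have been set aside as ambiguous. Npdc1 itself averaged 38.0 ± 5.34 CPM in 5E1 and 36.1 ± 1.49 CPM in IgG (SD, n = 3 each) and was not called (edgeR adjusted p 0.681).

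Dpp4, on chromosome 2 (62330073 to 62412231), encodes a surface peptidase, also known as CD26, that trims chemokines such as CXCL12. Its level per length was the lowest of the 10. It had 5.05, 7.20 and 2.80 CPM in 5E1, against 3.30, 3.98 and 4.68 CPM in IgG, from 71 to 242 reads in a library. The 5E1 libraries spanned the whole IgG range. On the log2 scale the difference was 0.34 (SE 0.32, edgeR adjusted p 0.487), with a 95% interval of -0.37 to 1.05, and it turned to -0.044 without 5E1 replicate 2.

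**Figure D2:**
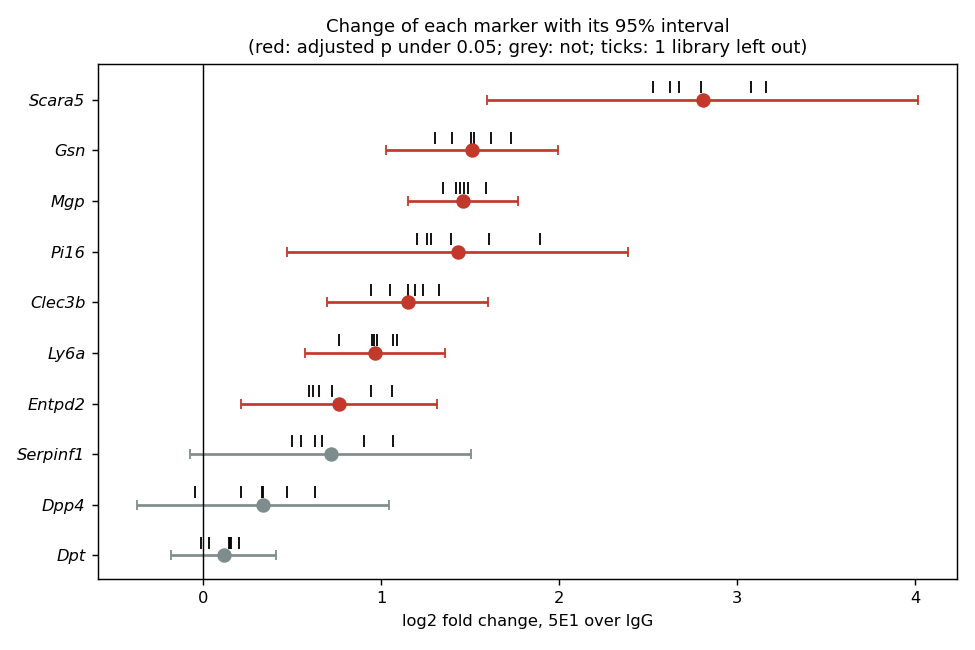
Log2 fold change (5E1 over IgG) of each marker with its 95% interval, red where the adjusted p was under 0.05, and black ticks for the fits that leave out 1 library. Scara5 (2.81) is highest and Dpt (0.11) lowest, and the ticks of Dpt and Dpp4 reach across 0.

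Several markers ranked the libraries alike. Within IgG, replicate 1 was highest for 9 markers and replicate 2 lowest for 9, Dpp4 being the exception in each case. Within 5E1, replicate 3 was highest for 7 markers, and replicate 2 was lowest for 5 (Pi16, Clec3b, Ly6a, Serpinf1 and Entpd2) while having the highest Mgp and Dpp4. Centred on the mean of the 6 libraries, the mean log2 level of the markers was 0.51, 0.52 and 0.69 in 5E1 libraries 1 to 3 and -0.21, -0.97 and -0.54 in IgG libraries 1 to 3. IgG replicate 2 was also the shallowest library and the one with the largest share of unaligned reads (42.9%). Whether depth or unaligned reads have a part in its low marker levels was not tested.

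Levels of different genes were compared per exon length, as RPKM (CPM per kilobase of merged exons). In 5E1 the order was Mgp (2687 ± 127 RPKM), Gsn (1249 ± 192), Dpt (746 ± 66.9), Clec3b (485 ± 62.0), Serpinf1 (106 ± 26.8), Scara5 (31.6 ± 11.5), Ly6a (18.52 ± 0.346), Pi16 (15.6 ± 3.80), Entpd2 (6.49 ± 1.58) and Dpp4 (0.794 ± 0.349; SD, n = 3 for each). In IgG it was Mgp (976 ± 161 RPKM), Dpt (689 ± 106), Gsn (438 ± 130), Clec3b (218 ± 59.6), Serpinf1 (64.3 ± 25.01), Ly6a (9.41 ± 2.52), Pi16 (5.74 ± 2.75), Scara5 (4.47 ± 1.96), Entpd2 (3.79 ± 1.20) and Dpp4 (0.631 ± 0.109; SD, n = 3 for each). Gsn and Dpt exchange places between the groups, and Scara5 stood at rank 6 in 5E1 and at rank 8 in IgG. Neighbours whose means lie within an SD of each other were Ly6a and Pi16 in 5E1, and Pi16, Scara5 and Entpd2 in IgG.

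The make-up of the marker signal differed accordingly. Dpt gave 14.1%, 13.3% and 14.5% of the 10 markers' summed RPKM in the 5E1 libraries, against 26.9%, 29.8% and 29.7% in the IgG libraries. Mgp gave 51.6%, 52.6% and 46.8% in 5E1, against 39.8%, 43.1% and 39.3% in IgG. Gsn gave 21.1%, 23.4% and 25.3% in 5E1, against 19.6%, 15.9% and 18.3% in IgG. The groups did not overlap for any of these 3 genes. The shares of Clec3b overlapped, at 9.08% ± 1.03 in 5E1 and 8.97% ± 0.830 in IgG (SD, n = 3 each). Within a library, Mgp was 3.67, 3.97 and 3.23 times as high as Dpt per length in 5E1, against 1.48, 1.45 and 1.32 times in IgG. Such shares show unequal change among the markers and not which of them stayed level. They were not tested.

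**Figure D3:**
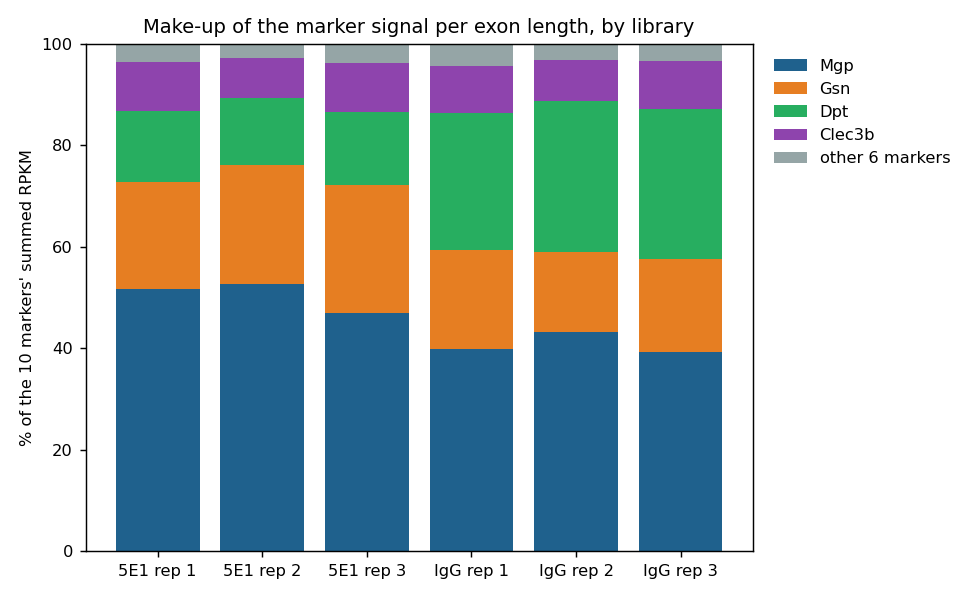
Share (%) of the 10 markers' summed RPKM taken by Mgp, Gsn, Dpt, Clec3b and the other 6 markers in each library, 5E1 libraries at the left. Dpt takes 13.3% to 14.5% in 5E1 and 26.9% to 29.8% in IgG, with Mgp and Gsn larger in 5E1.

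A further 38 genes reported for adventitial fibroblasts were read from the same fit, of which Creb5 was not used here. Of the 37 tested, 15 rose and 5 fell, where 12.1% of all genes rose and 11.1% fell, so the number that fell is near the share of all genes. The median of the 37 log2 fold changes was 0.66, beside 0.00087 over all genes. The 6 with the highest changes at 5 CPM or more begin with Igfbp6, which binds insulin-like growth factors. It averaged 99.8 ± 17.7 CPM in 5E1 and 18.3 ± 4.91 CPM in IgG (SD, n = 3 each; log2 fold change 2.44). Abca8a, a transporter gene, rose by 1.69, and Ccl11, which encodes the eosinophil attractant eotaxin, by 1.49. Pcolce2, which encodes an enhancer of procollagen processing, averaged 358 ± 21 CPM in 5E1 and 132 ± 11.7 CPM in IgG (SD, n = 3 each; log2 fold change 1.44). Gfpt2, an enzyme gene of the hexosamine pathway, rose by 1.41 and Ly6c1, a relative of Ly6a, by 1.39. The edgeR adjusted p of these 6 was at most 0.0191. The call of Ccl11 ended without 5E1 replicate 3 (0.0642) or IgG replicate 2 (0.0808) or 3 (0.0710) and with no low-count filter (0.0927).

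The 5 that fell included genes of surface proteins. Cd248, which encodes endosialin, averaged 178 ± 45.3 CPM in 5E1 and 425 ± 19.5 CPM in IgG (SD, n = 3 each), with a log2 fold change of -1.26 (edgeR adjusted p 0.00104). Opcml, a cell adhesion gene, had a log2 fold change of -1.62 (adjusted p 0.0213), Sema3c, a secreted guidance gene, -0.66 (0.00577) and Ackr3, which encodes a scavenging receptor for CXCL12, -0.54 (0.00270). Cd34, a sialomucin gene, completes the 5 at -0.49 (edgeR adjusted p 0.0410) and was named after its value was seen. Without IgG replicate 1, 2 or 3 the number that fell was 3, the calls of Opcml (adjusted p 0.0614 to 0.0733) and Cd34 (0.0727 to 0.130) having ended. That of Cd34 also ended without 5E1 replicate 2 (0.0528), with the filter at 5 CPM (0.0517) and with a term for Y-linked reads (0.0669), and that of Opcml with no low-count filter (0.0834).

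**Figure D4:**
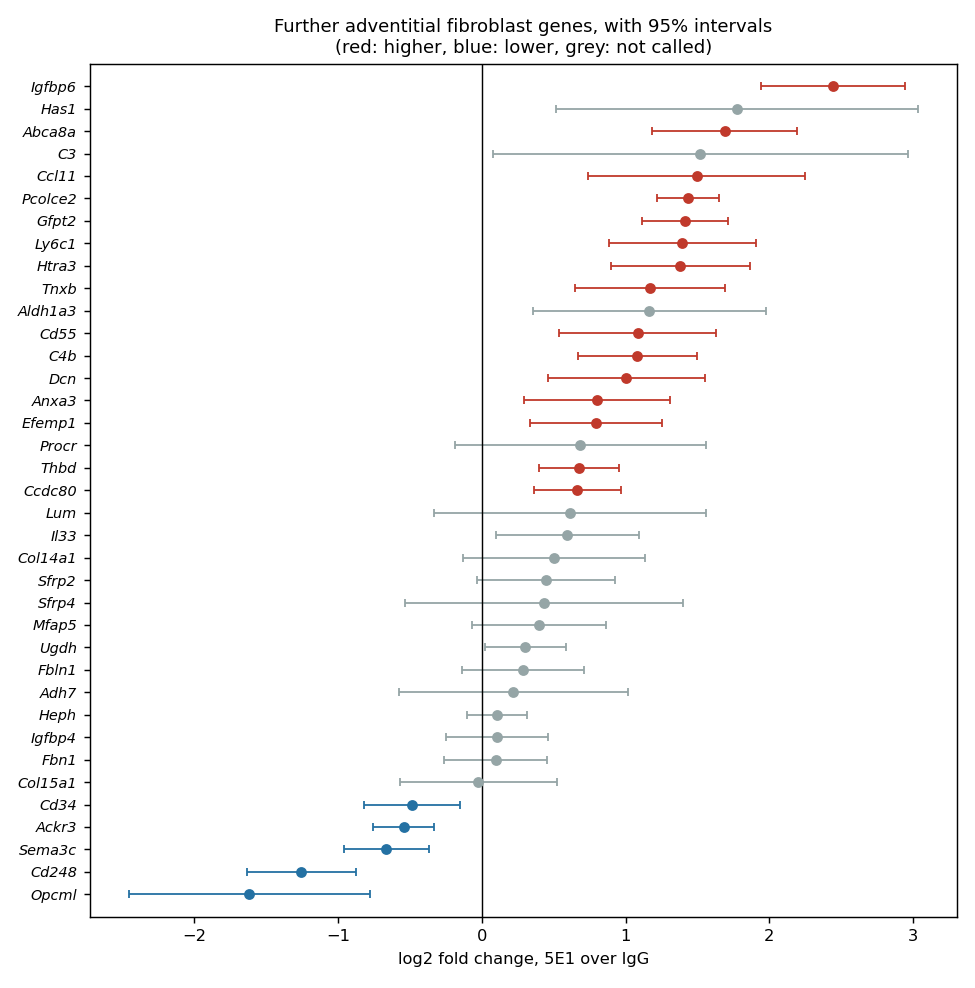
Log2 fold change (5E1 over IgG) with 95% interval of 37 further adventitial fibroblast genes, red where higher, blue where lower and grey where not called. The genes that rose reach up to Igfbp6 at 2.44, and those that fell run from Cd34 (-0.49) to Opcml (-1.62).

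Genes that act with the markers or belong to their families were read in the same way. Of 31 tested relatives 11 rose and 2 fell, and of 27 tested partners 5 rose and 5 fell, beside 12.1% of all genes higher and 11.1% lower. The partners, in either direction, and the relatives that fell are not far from those shares. In extracellular nucleotide breakdown, Entpd1, which encodes CD39 and takes ATP to AMP, averaged 34.5 ± 2.68 CPM in 5E1 and 172 ± 23.4 CPM in IgG (SD, n = 3 each; log2 fold change -2.32, edgeR adjusted p 4.12e-06). Enpp1, a nucleotide pyrophosphatase gene whose product pyrophosphate restrains calcification, averaged 83.0 ± 4.93 CPM in 5E1 and 220 ± 43.4 CPM in IgG (log2 fold change -1.41). Nt5e did not pass, at a log2 fold change of -0.38. Entpd5, given only as a family relative of Entpd2, did not pass either (0.26). Both were named after their values were seen.

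Iron handling gives the setting of Scara5. Fth1, the ferritin heavy chain gene, averaged 564 ± 54.4 CPM in 5E1 and 335 ± 45.6 CPM in IgG (SD, n = 3 each; log2 fold change 0.75, edgeR adjusted p 0.00181). Ftl1, the light chain gene, rose by 0.34 (edgeR adjusted p 0.0189), a call that ended without IgG replicate 1 or 2 and with library size alone, the highest adjusted p being 0.179. Both ferritin genes have many near-identical pseudogenes, so their counts are uncertain. Tfrc, the transferrin receptor gene, had a log2 fold change of -0.57 (edgeR adjusted p 0.0346). That call ended when any 1 of the IgG libraries, 5E1 replicate 1 or 5E1 replicate 3 was left out, at adjusted p of 0.0765 to 0.108.

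Around Mgp, Bmp4, which encodes a ligand that matrix Gla protein binds, averaged 48.6 ± 7.11 CPM in 5E1 and 112 ± 4.15 CPM in IgG (SD, n = 3 each; log2 fold change -1.21, edgeR adjusted p 8.13e-05). Gas6, another vitamin K-dependent protein gene, rose by 0.34 (edgeR adjusted p 0.0364), and the call ended without 5E1 replicate 3 (0.117) or IgG replicate 1 (0.0762) or 2 (0.136) and with library size alone (0.183) or the Y-linked term (0.0502). Ggcx, whose enzyme makes the Gla residues, had a log2 fold change of -0.02 and was not called. Around gelsolin, the related capping protein gene Capg rose by 0.87 (edgeR adjusted p 0.000306). The actin-binding genes Cfl1 and Pfn1 fell by 0.42 and 0.29, with edgeR adjusted p of 0.0147 and 0.0435. The first of these calls ended without IgG replicate 3 (0.0506) and the second when any 1 library other than 5E1 replicate 1 was left out (0.0550 to 0.146) or with the filter at 5 CPM (0.0574).

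Among CRISP family relatives of Pi16, Crispld2 rose by 1.17, with 151 ± 26.8 CPM in 5E1 and 67.1 ± 17.5 CPM in IgG (SD, n = 3 each), Pi15 rose by 0.63 and Glipr2 fell by 0.61 on the log2 scale. Their edgeR adjusted p was at most 0.00483. Cxcl12, the chemokine gene whose product Dpp4 trims, averaged 201 ± 14.6 CPM in 5E1 and 121 ± 30.6 CPM in IgG (SD, n = 3 each; log2 fold change 0.73, edgeR adjusted p 0.0169, and 0.0667 without 5E1 replicate 3). Fap, the closest relative of Dpp4, had a log2 fold change of 0.57 and did not pass (edgeR adjusted p 0.112). Of the serpins, Serping1, the C1 inhibitor gene, rose by 0.99. Pnpla2, a lipase gene whose product binds pigment epithelium-derived factor, rose by 0.53 and Plxdc2, a receptor gene for the same factor, by 0.89. The edgeR adjusted p of these 3 was at most 0.00348. Ly6e rose by 0.51 (edgeR adjusted p 0.0290, ending without 5E1 replicate 2 or IgG replicate 1 or 2, with library size alone at 0.102 and with the Y-linked term at 0.0523) and Colec12, a scavenger receptor gene related to Scara5, by 0.44 (edgeR adjusted p 0.0468). The call of Colec12 ended when any 1 library other than 5E1 replicate 2 was left out (0.0588 to 0.166), with library size alone (0.1095), without robust estimation (0.0520) and with the Y-linked term (0.0689).

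Among the genes most alike to the markers' mean profile over the 6 libraries were Fam20a, C1s1, Matn2 and Sod3, out of 10850 other genes with at least 5 CPM. Their centred log2 levels differed from that profile by a root-mean-square of 0.0838 to 0.105. Sod3, which encodes extracellular superoxide dismutase, averaged 287 ± 28.2 CPM in 5E1 and 130 ± 20.2 CPM in IgG (SD, n = 3 each). Matn2, which encodes the matrix protein matrilin-2, averaged 162 ± 25.2 CPM in 5E1 and 76.0 ± 15.5 CPM in IgG (SD, n = 3 each). They were picked for this likeness, which with 6 libraries in 2 groups includes the difference between the groups.

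Markers of other fibroblast states were read from the same fit. Of 22 alveolar fibroblast markers 8 rose and 3 fell, and the median log2 fold change was 0.29. Of all genes 12.1% rose and 11.1% fell, and the 3 that fell are near that share. Limch1 (0.91) and Spon1 (1.18) were the most abundant that rose, and Enpep (-1.11) and Meox2 (-0.63) the most abundant that fell. The number that rose was 4 without 5E1 replicate 3, and the number that fell was 1 without 5E1 replicate 2, where Meox2 was not called (edgeR adjusted p 0.0602). Of 19 secondary crest myofibroblast markers, genes of the contractile cells at the tips of growing septa, 5 rose and 13 fell (all genes 12.1% and 11.1%), with a median of -0.96. Tgfbi fell to 2225 ± 88.0 CPM in 5E1, against 5344 ± 565 CPM in IgG, and Acta2 to 1056 ± 306 CPM in 5E1, against 1916 ± 101 CPM in IgG (SD, n = 3 each). Aspn (0.95) and Plxdc2 (0.89) rose. Without IgG replicate 3 the number that rose was 2 and Aspn was not called (edgeR adjusted p 0.0546). No test of the difference between these lists and the adventitial markers was made. The lists share some genes. Hhip, among the 13 myofibroblast markers that fell, is also a hedgehog target, and Plxdc2 is also counted among the partners. Ly6c1 is counted both in the further adventitial genes and in the relatives.

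Some markers of other cell types also differed between the groups, and their counts are to be read beside the 12.1% of all genes that rose and the 11.1% that fell. The summed level of 10 mesothelial markers was 143 to 281 CPM in 5E1 and 51.5 to 96.7 CPM in IgG, and 4 of 9 tested rose, among them Upk1b (109 ± 20.9 CPM in 5E1 and 35.9 ± 6.36 CPM in IgG). Msln, another abundant one, overlapped between the groups. Macrophage and monocyte markers summed to 151 to 281 CPM in 5E1 and 99.3 to 128 CPM in IgG (9 of 14 rose), with Lyz2 and Ptprc the most abundant. Neutrophil markers, led by S100a9 (74.3 ± 16.3 CPM in 5E1 and 6.21 ± 0.790 CPM in IgG) and S100a8, summed to 130 to 213 CPM in 5E1 and 14.2 to 17.6 CPM in IgG, and all 9 tested rose. Pericyte markers, led by Abcc9 and Rgs5, summed to 532 to 616 CPM in 5E1 and 416 to 490 CPM in IgG (3 of 10 rose and 1 fell). Abcc9, which rose, averaged 201 ± 21.1 CPM in 5E1 and 111 ± 25.9 CPM in IgG (SD, n = 3 each). Rgs5 averaged 85.6 ± 17.3 CPM in 5E1 and 99.2 ± 10.4 CPM in IgG and was not called (edgeR adjusted p 0.329).

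Epithelial markers, led by Scgb1a1 and Sftpc, summed to 528 to 1579 CPM in 5E1 and 462 to 746 CPM in IgG, with 2 of 12 higher, near the share of all genes, and 5E1 replicate 2 alone was above all other libraries. That library also had the highest sums of mesothelial, endothelial, macrophage and monocyte, and lymphocyte markers. Lymphocyte markers, led by Cd79a and Trac, summed to 6.19 to 12.1 CPM in 5E1 and 5.62 to 6.03 CPM in IgG, and Cd3e, Cd3d, Cd3g, Cd8a, Nkg7 and Klrb1c were under 1 CPM in every library. Cartilage markers, led by Col2a1 and Sox9, summed to 30.7 to 63.0 CPM in 5E1 and 69.8 to 112 CPM in IgG. Of the 6 tested, 1 rose and 3 fell. The 1 that rose was Sox9, at 21.4 ± 1.75 CPM in 5E1 and 12.9 ± 3.59 CPM in IgG (SD, n = 3 each). Col2a1 was not called (edgeR adjusted p 0.257). Schwann cell markers, S100b among the most abundant, summed to 14.2 to 22.4 CPM in 5E1 and 25.4 to 36.5 CPM in IgG. Sox10, Cdh19 and Foxd3 were under 1 CPM throughout. S100b averaged 4.25 ± 1.30 CPM in 5E1 and 22.4 ± 4.92 CPM in IgG (SD, n = 3 each). Of the 5 tested, 1 rose (Mbp) and 1 fell (S100b), and 4 had a log2 fold change above 0. Against these sums, the 10 adventitial markers together held 8594 to 10354 CPM in 5E1 and 3231 to 5078 CPM in IgG. Beside their median log2 fold change of 1.06, the median was 3.09 for neutrophil, 1.56 for mesothelial and 1.09 for macrophage and monocyte markers. It was 0.93 for Schwann cell, 0.77 for endothelial, 0.69 for epithelial, 0.55 for lymphocyte, 0.22 for pericyte and -1.88 for cartilage markers. The part of mesothelial cells, leukocytes and pericytes in the changes of Gsn, Mgp and the other markers was not tested. Without 5E1 replicate 2 the log2 fold changes were 1.51 for Gsn, 1.42 for Mgp and 1.24 for Clec3b, all called. In that fit Scara5 (2.67, edgeR adjusted p 0.0611) and Pi16 (1.61, adjusted p 0.0781) were not called, and Dpp4 turned to -0.044. The mesothelial and neutrophil sums of the other 5E1 libraries exceeded those of every IgG library.

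**Figure D5:**
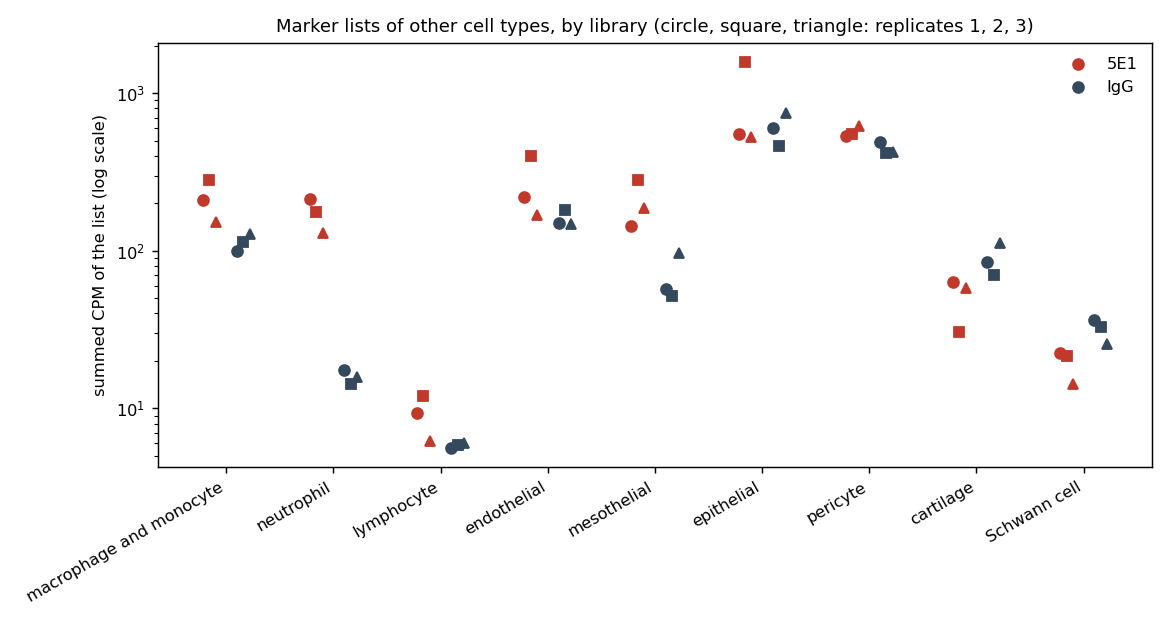
Summed CPM (log axis) of 9 marker lists of other cell types in each 5E1 library (red) and IgG library (dark). Neutrophil and mesothelial sums are higher in every 5E1 library, and epithelial and endothelial sums overlap. 5E1 replicate 2 is highest for epithelial, endothelial, mesothelial, macrophage and monocyte, and lymphocyte markers.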

How the data were processed

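Each of the 6 libraries had its own file of raw counts, reads per gene symbol, as deposited by the authors, with 48397 symbols. The 5 summary lines at its end, in which unaligned reads made up 20.4% to 42.9% of a library, entered neither library sizes nor tests. Unaligned reads were 36.3%, 20.4% and 26.0% in 5E1 libraries 1 to 3 and 31.3%, 42.9% and 32.8% in IgG libraries 1 to 3. The submitters' processing notes name HTSeq 0.6.0, STAR 2.5.0c, DESeq2 1.10.0, bedtools 2.17.0, Picard 1.126 and R 3.5.1, and mm10 as the build, without roles. The sources used here do not give the annotation, strand setting or duplicate handling. A stranded mRNA kit made the libraries, per the labels' protocols.

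The test was the two-sided quasi-likelihood test of edgeR 4.0.16 (R 4.3.3), robust, on TMM-scaled counts with a group term only, after filterByExpr (minimum count 10, minimum total 15). Adjustment by Benjamini-Hochberg covered the 16198 genes tested, with 0.05 as the threshold for a call. CPM was taken on TMM-scaled library sizes, and RPKM divides it by the merged exon length in GENCODE M21 (GRCm38), the source of positions. Log2 fold changes put 5E1 over IgG (prior count 0.125), and 95% intervals come from the fit. Counts of replicates differed beyond sampling noise (chi-square over degrees of freedom 14.8 to 50.5), and the fit was tested on simulated data. The highest values, 37.1 and 50.5, were those of 5E1 replicate 2 with 5E1 replicates 1 and 3. Other pairs were at 14.8 to 18.0. 5E1 replicate 2 was also the deepest library.

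The markers and lists were chosen with earlier results of these data known. The text names all 10 markers, the targets Ptch1, Gli1 and Hhip, and the 5 genes most alike in profile. Of further adventitial genes it names the 6 highest and 4 lowest that were called at 5 CPM or more, and of relatives and partners every called gene at 5 CPM or more. For other fibroblast states it names the 2 most abundant called genes in each direction, and for other cell types the 2 most abundant. Some genes that these rules take are not reported here. Results for all genes, the markers, further adventitial genes, relatives, partners and other fibroblast states were refitted in several ways. Each library was left out, and RLE factors or library size alone, limma-voom (limma 3.58.1) and DESeq2 1.42.0 were used. Further fits had no low-count filter (beyond 1 read), one of 5 CPM in 3 libraries, or no robust estimation. The last had the replicate number as a block, or a term for Y-linked reads (1 CPM or more). Markers of other cell types were not read from these refits. For relatives, partners and other fibroblast states these refits were chosen after seeing the data.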

Additional observations from a re-analysis of the deposited data

How the results depend on the processing

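Clec3b, Ly6a, Gsn and Mgp were called higher in all 15 alternatives tried, Scara5 in 11, Pi16 and Entpd2 in 8 each, Serpinf1 in 2, and Dpp4 and Dpt in 0. The number of markers that rose was 5 to 7 over the alternatives that keep all 6 libraries and 4 to 8 with 1 library left out, and 0 fell in any of them. Further adventitial genes that rose numbered 11 to 20 with 1 library left out, and those that fell 3 to 5. The only signs that turned were those of Dpt with library size alone (-0.033) and, over a range of -0.011 to 0.20 with 1 library left out, without IgG replicate 2, and of Dpp4 without 5E1 replicate 2 (range -0.044 to 0.63 with 1 library left out), none of them called. With library size alone 3274 genes fell in place of 1791, as did 5 relatives in place of 2 and 9 partners in place of 5. With no low-count filter 4 relatives and 9 partners fell. With 1 library left out, genes that rose numbered 1221 to 1885 and genes that fell 1073 to 1819. Over the same fits relatives that rose numbered 7 to 12, partners that fell 2 to 6, alveolar fibroblast markers that rose 4 to 11 and fell 1 to 3, and myofibroblast markers that rose 2 to 5. The cause of these differences was not tested. No label ties same-numbered libraries of the groups to each other. Their deviations correlated at -0.106, -0.0365 and -0.0854, which with so few libraries cannot show whether they are paired. With the replicate block 1720 genes rose and 1500 fell, and 7 markers rose, Serpinf1 (0.75, edgeR adjusted p 0.0159) being called and Scara5 (2.83, adjusted p 0.111) not. The block also ended the calls of Ccl11 (0.0903), Opcml (0.0676), Ly6e (0.0526) and Pfn1 (0.0851). Dpp4 gave no value under the filter at 5 CPM. Read depth limits Dpp4 most, at 71 to 242 reads in a library.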
